A study of Arabidopsis thaliana with 18 samples.

Results

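The SWEET genes encode sugar transporters of the plasma membrane and the vacuole. SWEET proteins are uniporters: they let sugar pass down its gradient in either direction, without coupling to protons. In Arabidopsis they are grouped in clades, of which clades I and II carry mainly hexoses, clade III mainly sucrose and clade IV fructose and other sugars across the vacuolar membrane. They are known for the export of sucrose from leaf cells before phloem loading, for feeding pollen, nectaries and seeds, and for sugar storage in the vacuole. The SWEET genes described here were selected by gene identifier from a list of 10 (SWEET1, 2, 4, 10, 11, 12, 13, 14, 15 and 17), and 9 of them had a row among the 19858 genes of the authors' deposited table. SWEET14 was not analysed here, and neither were SWEET3 and SWEET5 to SWEET9. SWEET16 had a row but was not on the list, and its values are given for comparison. SWEET10 was chosen by its own measured change in these data (FPKM in pold2 over WT), and the family around it for comparison. The RNA values of these genes are therefore a description, and no test is made of the family.

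The values come from whole seedlings of Arabidopsis thaliana, ecotype C24, that carried the pold2 mutation or were wild type (WT). POLD2 belongs to DNA polymerase delta, an enzyme of genome replication, as its second subunit. Plants of both genotypes were 10 days old, received no treatment and grew on medium with 20 g/L sucrose at 22°C under 23 h of daily light, so sugar was also supplied from outside. The labels name the mutant as pold2, with no allele. RNA was sequenced from 3 libraries per genotype, and the authors' table gives 1 pooled FPKM value (fragments counted relative to transcript length and sequencing depth) per genotype, so no value here has an SD or an n. Whether the 3 libraries were separate cultures is not stated in the labels, so the spread behind the authors' q values may be technical. Histone marks were read from peak lists of 1 WT chromatin immunoprecipitation library each for H3K27me3, H3K4me3 and H3K9me2. The pold2 chromatin libraries, the H3 and input libraries and the bisulfite libraries were not analysed here.

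The labels could be checked only weakly, since they name no allele and so do not predict the level of POLD2 RNA. POLD2 (AT2G42120) stood at 2.83 FPKM in pold2 and 7.21 FPKM in WT, 2.55-fold lower by the authors' deposited table (q = 0.00103). All 6 leaf markers and all 6 root markers had a row, as whole seedlings should show. A value of 0.501 FPKM in the higher genotype was enough for a row, so a row alone says little. The leaf markers reached 16515 FPKM in pold2 and 16839 FPKM in WT, both for the Rubisco small subunit gene RBCS1A. The root markers summed to 1898 FPKM in pold2 and 1622 FPKM in WT, nearly all of it from PYK10. In whole seedlings, fewer cells of a type and less RNA per cell cannot be told apart.

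In pold2, SWEET10 rose and SWEET11 fell, and the other 7 SWEET genes did not pass the authors' test at q under 0.05. In the authors' deposited table, 12.4% of all genes passed that test, with 5.97% higher and 6.47% lower in pold2, so nothing is read from a count of 2 among 9. Of the 9 genes, 6 had a lower and 3 a higher pooled value in pold2 than in WT (51.3% of all genes were lower). Their log2 ratios of pold2 over WT had a median of -0.22, beside -0.01 over all genes, and without SWEET10 they ran from -0.57 to 0.15 in the authors' deposited table.

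**Figure D1:**
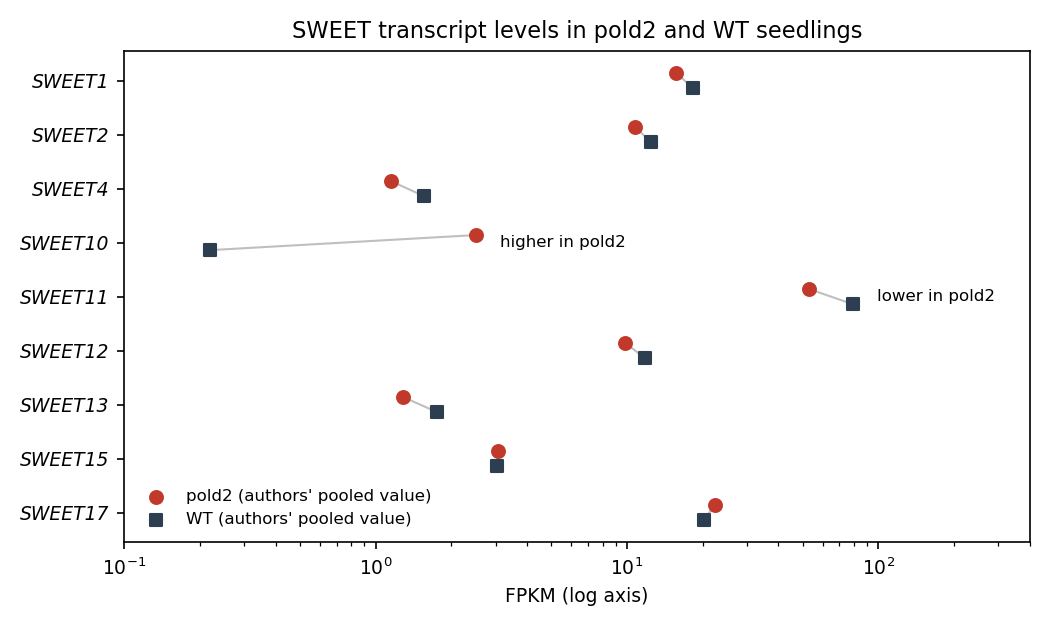
Transcript level of the 9 SWEET genes, as FPKM on a log axis, with circles for pold2 and squares for WT. Each symbol is the authors' pooled value of 3 libraries, without error. SWEET10 lies at 2.51 FPKM in pold2, against the lowest WT value (0.219 FPKM), and the other 8 genes have the same order in both genotypes.

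SWEET10 (AT5G50790, chromosome 5, 20656253 to 20658001, TAIR10) is a clade III sucrose transporter gene, known to be induced downstream of the flowering signal FT during the floral transition. It had 2.51 FPKM in pold2 and 0.219 FPKM in WT. In the authors' deposited table this was an 11.5-fold rise, a log2 ratio of 3.52 (p = 0.0001, q = 0.00188). In WT it was the lowest of the 9 SWEET genes, at percentile 0.358 of all listed genes. In pold2 it ranked above SWEET13 and SWEET4, at percentile 15.4. Its level in pold2 was still 21.1-fold below that of SWEET11 in the same plants. Among genes called higher in the authors' deposited table, 11 had a larger log2 ratio.

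The fold of SWEET10 depends on a WT value near the bottom of the table. Every gene listed had at least 0.501 FPKM in the higher genotype, so each of the 269 genes under 0.5 FPKM in WT had to be higher in pold2 to be listed at all. Of those 269 genes, 98 were called higher in the authors' deposited table, SWEET10 among them. The rise as a difference, 2.29 FPKM, does not depend on a small divisor, but its direction was set by the same listing limit. On the scale of log2(FPKM + 1) the ratio of SWEET10 was 1.53.

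None of the other 4 clade III genes was called higher in the authors' deposited table. SWEET11 (AT3G48740, chromosome 3, 18052466 to 18054755, TAIR10) and SWEET12 (AT5G23660, chromosome 5, 7971651 to 7973925, TAIR10) export sucrose from phloem parenchyma cells into the cell wall space, from where it is loaded into the phloem. SWEET11 had 53.0 FPKM in pold2 and 79.0 FPKM in WT, the highest level of the 9 genes in both genotypes. By the authors' deposited table it fell 1.49-fold in pold2 (log2 ratio -0.57, q = 0.00103). SWEET12 had 9.85 FPKM in pold2 and 11.8 FPKM in WT, a log2 ratio of -0.26 that passed an unadjusted p (0.037) but not the adjusted test (q = 0.171) in the authors' deposited table. SWEET11 and SWEET12 are close paralogs, and how reads that fit both were divided is not given in the sources used here.

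SWEET13 (AT5G50800, chromosome 5, 20665077 to 20667304, TAIR10), which also transports gibberellin and is known from anthers, had 1.28 FPKM in pold2 and 1.76 FPKM in WT (q = 0.214 in the authors' deposited table). Its close paralog SWEET14 was not analysed here, and reads could be shared between them. SWEET15 (AT5G13170, chromosome 5, 4181042 to 4183306, TAIR10), also named SAG29 for its induction in senescing leaves, had 3.08 FPKM in pold2 and 3.03 FPKM in WT (q = 0.954 in the authors' deposited table). Together the 5 clade III genes summed to 69.7 FPKM in pold2 and 95.7 FPKM in WT. SWEET11 alone held 44.3% of the summed level of all 9 genes in pold2 and 53.3% in WT. The 8 genes other than SWEET11 summed to 66.7 FPKM in pold2 and 69.3 FPKM in WT, with the 2.29 FPKM rise of SWEET10 included. Of these 8, 5 had a lower and 3 a higher pooled value in pold2.

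The hexose and vacuolar transporters were not called. SWEET1 (AT1G21460, chromosome 1, 7511850 to 7513361, TAIR10), a glucose transporter of the plasma membrane, had 15.7 FPKM in pold2 and 18.3 FPKM in WT (log2 ratio -0.22, q = 0.246 in the authors' deposited table). SWEET2 (AT3G14770, chromosome 3, 4957334 to 4959704, TAIR10), a vacuolar membrane protein that limits sugar loss from roots, had 10.8 FPKM in pold2 and 12.4 FPKM in WT (log2 ratio -0.21, q = 0.269 in the authors' deposited table). SWEET4 (AT3G28007, chromosome 3, 10408092 to 10409745, TAIR10), a hexose transporter of clade II, had 1.15 FPKM in pold2 and 1.56 FPKM in WT (log2 ratio -0.44, q = 0.345 in the authors' deposited table). These 3 genes had lower pooled values in pold2, by 1.15-fold to 1.36-fold, without passing the test.

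In clade IV, SWEET17 (AT4G15920, chromosome 4, 9030517 to 9033395, TAIR10), a fructose transporter of the vacuolar membrane, had 22.4 FPKM in pold2 and 20.2 FPKM in WT (log2 ratio 0.15, q = 0.488 in the authors' deposited table). Its relative SWEET16 (AT3G16690), which is not on the list, had 2.16 FPKM in pold2 and 2.05 FPKM in WT (q = 0.894 in the authors' deposited table). The order of levels in pold2, from the highest, was SWEET11, SWEET17, SWEET1, SWEET2, SWEET12, SWEET15, SWEET10, SWEET13 and SWEET4. In WT the order was the same except that SWEET10 came last. With 1 pooled value per genotype, it cannot be said which neighbours in this order differ beyond their spread.

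Chromatin marks in WT separated the SWEET genes into those under H3K27me3, the mark that Polycomb complexes set on silent genes, and those under H3K4me3, which marks the start of transcribed genes. A peak with an overlap of at least 1 bp counted as lying over a locus. H3K27me3 peaks lay over 6 of the 9 genes (SWEET4, 10, 11, 12, 13 and 15), against 15.3% of all listed genes. H3K4me3 peaks lay over 3 (SWEET1, 2 and 17), against 83.8% of all listed genes. No gene was under both marks (6.62% of all genes were), and none was under H3K9me2, the mark of silent transposons (0.68% of all genes were). These shares come from 1 library per mark and were not tested.

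**Figure D2:**
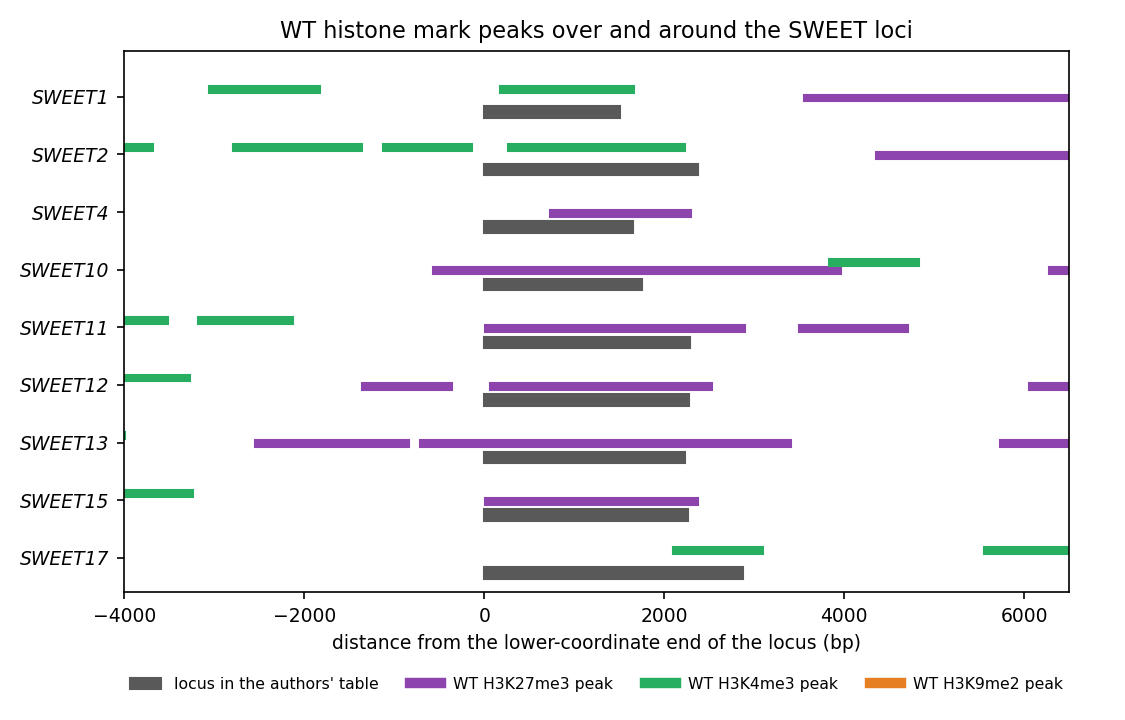
Peaks of H3K27me3, H3K4me3 and H3K9me2 in WT (coloured bars) around each SWEET locus (grey bar), drawn by distance in bp from the lower-coordinate end, since the table gives no strand. Peaks of H3K27me3 cover the loci of SWEET10, 11, 12, 13 and 15 almost whole and 56.1% of SWEET4. No H3K9me2 peak falls within the distances drawn, and the nearest to any of these loci lay 4444 bp from SWEET11.

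All clade III genes with a row were under H3K27me3, and the peak covered 97.4% to 100% of each locus. SWEET10 had the widest and best-scoring of these peaks, 4539 bp wide, wider than 92.3% of the H3K27me3 peaks and with a score above 96.6% of them. It began 570 bp beyond the lower-coordinate end of the locus and ended 2220 bp beyond the other end. The SWEET11 peak was 2894 bp wide, ended 610 bp beyond its locus and scored above 94.2% of the list. The SWEET13 peak was 4124 bp wide (score above 77.7% of the list), that of SWEET15 2367 bp (80.9%), that of SWEET12 2468 bp (36.2%) and that of SWEET4 1575 bp (39.0%). Scores are the authors' own and rank peaks within their list only.

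Genes under H3K27me3 ranged from 1.15 to 53.0 FPKM in pold2 and from 0.219 to 79.0 FPKM in WT, so that the most and the least expressed SWEET genes of WT were both among them. Of the 6, SWEET10 was called higher, SWEET11 lower and 4 neither. Over all listed genes under H3K27me3, 16.6% passed as higher and 7.22% as lower by the authors' deposited table. The 3 genes under H3K4me3 had 10.8 to 22.4 FPKM in pold2 and 12.4 to 20.2 FPKM in WT, and none of them was called, with unadjusted p-values of 0.0649 to 0.208 in the authors' deposited table. All 3 of their peaks scored in the lower part of the H3K4me3 list, from above 8.47% of peaks for SWEET1 to above 33.1% for SWEET2. The SWEET17 peak covered 27.2% of its locus, those of SWEET1 and SWEET2 88.5% and 82.9%. SWEET16 was under neither mark, but an H3K27me3 peak of 4424 bp ended 17 bp from its locus.

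SWEET10 and SWEET13 are neighbours on chromosome 5, separated by 7075 bp, with no gene of the reference gene table between them. Each had its own H3K27me3 peak in WT, a further H3K27me3 peak of 1719 bp lay between them, and an H3K4me3 peak of 995 bp covered the edge of the SWEET10 domain. SWEET10 was higher in pold2, and SWEET13 was not called, with a pooled value 1.37-fold lower in pold2. Within 10 kb on the other side, AT5G50780, 1040 bp away, had no H3K27me3 peak and stood at 5.07 FPKM in pold2 and 4.30 FPKM in WT (q = 0.213 in the authors' deposited table). HSD6 (AT5G50770), 7527 bp away, lay entirely under another H3K27me3 peak and stood at 0.938 FPKM in pold2 and 0.156 FPKM in WT. Like SWEET10 it is one of the 269 genes under 0.5 FPKM in WT. Its pooled value was 6.02-fold higher in pold2, which passed an unadjusted p (0.0141) but not the adjusted test (q = 0.0896) in the authors' deposited table. Whether the peaks changed in pold2 was not tested.

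**Figure D3:**
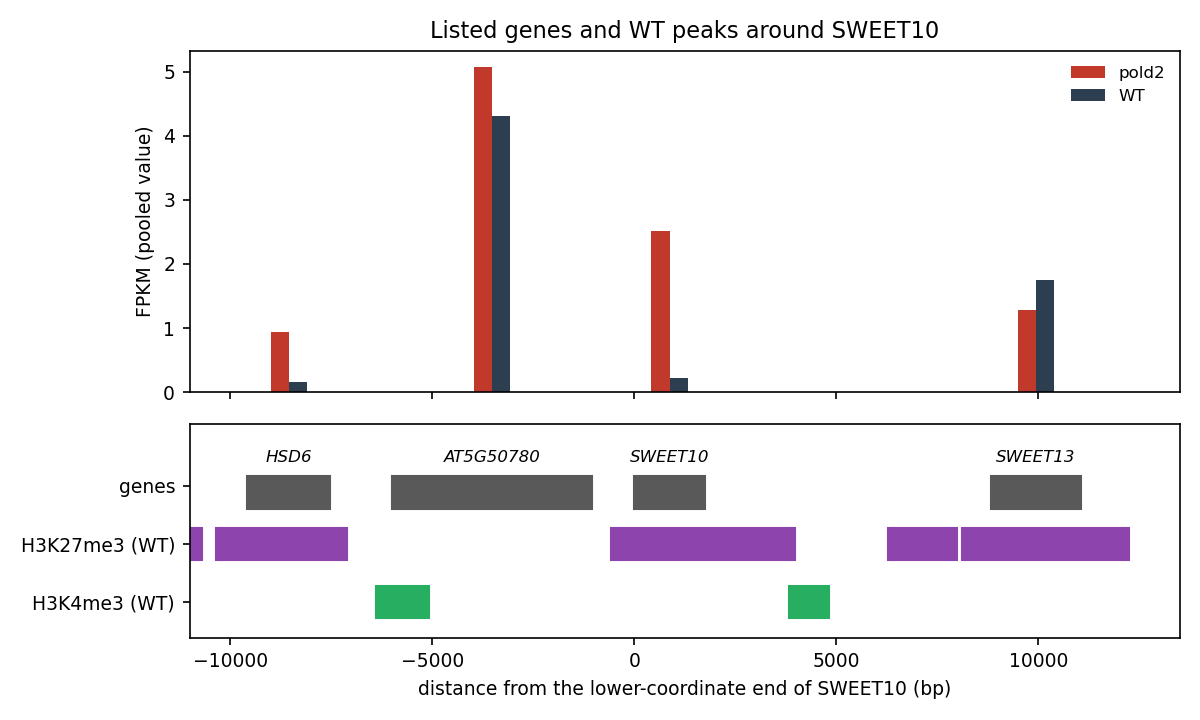
Listed genes within 10 kb of SWEET10, with their pooled FPKM in pold2 (left bars) and WT (right bars) above, and the genes and WT peaks below, by distance in bp from the lower-coordinate end of SWEET10. SWEET10, HSD6 and SWEET13 each lie under an H3K27me3 peak, and among the genes drawn SWEET10 alone was called.

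The 5 genes nearest to SWEET10 by their log2(FPKM + 0.1) in both genotypes were AT3G19550, AT2G42885, VSP2 (AT5G24770), AT4G25580 and AT3G11160, at distances of 0.319, 0.334, 0.506, 0.588 and 0.613. This likeness rests on 2 pooled values. Of the 5, VSP2 and AT3G11160 were under H3K27me3 in WT. Of all 269 genes under 0.5 FPKM in WT, 163 were, so no likeness to SWEET10 is read from the mark. VSP2, AT4G25580 and AT3G11160 were called higher in the authors' deposited table, as were 98 of those 269 genes. The 5 genes are among the 269 and were picked by values that include the rise. Nothing is therefore read from their direction or their calls. AT3G19550 had 1.99 FPKM in pold2 and 0.216 FPKM in WT, close to SWEET10, but its q was 0.209 in the authors' deposited table. AT2G42885 had 2.22 FPKM in pold2 and 0.161 FPKM in WT, with a q of 0.436 there.

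Of 5 genes of the flowering pathway in which SWEET10 is placed, 3 had a row, and FT and SOC1 were called higher in the authors' deposited table (5.97% of all genes were). FT had 1.58 FPKM in pold2 and 0.495 FPKM in WT (3.19-fold, q = 0.0432 in the authors' deposited table). Its WT level was too low for a row without a higher value in pold2, and its call is lost at q under 0.01. SOC1, which FT activates, had 6.12 FPKM in pold2 and 1.70 FPKM in WT (3.60-fold, q = 0.00103 in the authors' deposited table). FD, the partner of FT at the shoot apex, stood at 1.69 FPKM in pold2 and 1.53 FPKM in WT (q = 0.761 in the authors' deposited table). This list was chosen with earlier results of these data known, so nothing is read from its count of calls. The part of the FT pathway in the level of SWEET10 was not tested.

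Markers of floral organs and seeds are given beside SWEET10. Of 7 floral and anther markers 3 had a row, and none of these was listed at 0. AP3, which specifies petals and stamens, had 6.81 FPKM in pold2 and 0.166 FPKM in WT, and its partner PI had 5.55 FPKM in pold2 and 0.331 FPKM in WT. AG, which specifies stamens and carpels, had 2.45 FPKM in pold2 and 0.0939 FPKM in WT. AP3 and PI were called higher and AG was not in the authors' deposited table. All 3 stood under 0.5 FPKM in WT, so each could be listed only with a higher value in pold2, and nothing is read from their shared direction. The anther genes AMS, A9, DYT1 and SPL were not analysed here. The 4 seed markers were all called higher in the authors' deposited table (5.97% of all genes were), from WT levels above that limit. Their list was chosen with earlier results of these data known, so nothing is read from the count. The storage protein genes CRC and CRA1 had 13.3 and 33.1 FPKM in pold2, against 1.32 and 7.51 FPKM in WT. The oil body genes OLEO1 and OLEO2 had 8.09 and 14.3 FPKM in pold2, against 3.00 and 5.56 FPKM in WT. The seed markers summed to 68.8 FPKM in pold2 and 17.4 FPKM in WT. In WT, H3K27me3 peaks lay over all 3 floral and all 4 seed markers with a row, as over SWEET10 (15.3% of all listed genes had one). Nothing is read from these counts either. Neither the part of these tissues nor that of the mark in the level of SWEET10 was tested.

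The fall of SWEET11 was set beside the next step of phloem loading and beside tissue markers. SUC2, the proton symporter that takes up the exported sucrose into companion cells, had 31.6 FPKM in pold2 and 44.1 FPKM in WT. By the authors' deposited table it fell 1.40-fold in pold2 (log2 ratio -0.48, q = 0.00103), beside 1.49-fold for SWEET11. Of 11 phloem genes 9 had a row. SUC2 and PP2-A1, a phloem lectin, were lower (6.47% of all genes were) and the other 7 were not called, and the list had a median log2 ratio of -0.03 in the authors' deposited table. PP2-A1 had 49.9 FPKM in pold2 and 62.6 FPKM in WT. The sieve element gene SEOR1 had 17.9 FPKM in pold2 and 15.9 FPKM in WT, and the companion cell proton pump AHA3 had 49.9 FPKM in pold2 and 55.5 FPKM in WT. The phloem genes with a row summed to 250 FPKM in pold2 and 278 FPKM in WT, and none was at 0. Of the 6 leaf markers, LHCA1, LHCB1.1 and LHCB2.2 were lower and 3 were not called, with a median log2 ratio of -0.38 in the authors' deposited table. The leaf markers summed to 33540 FPKM in pold2 and 38373 FPKM in WT. Among the 3063 genes with at least 50 FPKM in WT, 16.8% were called lower in the authors' deposited table. Of the same 3063 genes, 2.19% were both called lower and fell by as much as SWEET11 or more. The part of leaf or phloem content in the fall of SWEET11 was not tested.

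Senescence markers are given beside SWEET15. Of 5, 4 had a row and none was called, with 1, NYE1, at an unadjusted p under 0.05 in the authors' deposited table. Over all genes 12.4% were called, so nothing is read from a count among 4. They summed to 59.0 FPKM in pold2 and 56.5 FPKM in WT. SAG13 had 0.582 FPKM in pold2 and 0.206 FPKM in WT (q = 0.422 in the authors' deposited table). SAG12 was not analysed here.

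Other sugar transporters and sucrose enzymes were compared to show the setting of the SWEET genes. Over 5 lists, 42 of 54 genes had a row, of which the authors' deposited table gave 6 as higher, 5 as lower and 31 as not called, with a median log2 ratio of 0.17. Over all genes 12.4% were called, 5.97% higher and 6.47% lower. None of these changes was as large as that of SWEET10: the largest rise was 2.75-fold and the largest fall 1.40-fold in the authors' deposited table. SWEET10 was chosen by its own change, and its fold depends on a WT value near the bottom of the table, so nothing is read from this order.

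Among the SUC sucrose symporters, 5 of 9 had a row, 2 were higher, 1 was lower and 2 did not pass by the authors' deposited table. SUC5, known from the endosperm, had 4.01 FPKM in pold2 and 1.46 FPKM in WT (2.75-fold), and SUC1, known from roots and pollen, had 44.1 FPKM in pold2 and 30.0 FPKM in WT (1.47-fold, both q = 0.00103 in the authors' deposited table). SUC1 and SUC5 are adjacent and similar genes, so their split of reads is uncertain. The 4 SUC genes with an H3K27me3 peak in WT (SUC1, SUC2, SUC4 and SUC5) also had an H3K4me3 peak. Over the 5 lists, 13 genes had an H3K27me3 peak, of which 7 also had an H3K4me3 peak and 6, like the 6 SWEET genes under H3K27me3, did not. Of all 3033 listed genes under H3K27me3, 1315 had both.

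Among the STP hexose symporters, 8 of 14 had a row, 1 was higher, 2 were lower and 5 did not pass by the authors' deposited table. STP3 had 9.11 FPKM in pold2 and 5.85 FPKM in WT (1.56-fold higher), STP1 had 40.2 FPKM in pold2 and 49.8 FPKM in WT (1.24-fold lower) and STP14 had 3.59 FPKM in pold2 and 4.87 FPKM in WT (1.36-fold lower), by the authors' deposited table. All 9 vacuolar and ERD6-like transporters had a row. Of these, ESL1 was lower, at 8.40 FPKM in pold2 and 11.7 FPKM in WT (1.39-fold), and the authors' deposited table called none of the other 8 at q under 0.05 (3 of them had an unadjusted p under 0.05).

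Invertases split sucrose into hexoses that SWEET and STP proteins carry. Of 10 genes named as invertases, 8 had a row, of which 2 were higher and 6 did not pass by the authors' deposited table. The genes were taken by name, and whether each product splits sucrose was not checked. CWINV6 had 1.04 FPKM in pold2 and 0.581 FPKM in WT (1.79-fold), and the vacuolar invertase VI1 had 25.7 FPKM in pold2 and 20.1 FPKM in WT (1.28-fold) in the authors' deposited table. All 12 genes of sucrose synthesis and cleavage had a row, and 10 of them did not pass by the authors' deposited table. The sucrose phosphate synthase gene SPS1F had 49.4 FPKM in pold2 and 40.4 FPKM in WT (1.22-fold higher), and the sucrose synthase gene SUS4 had 4.76 FPKM in pold2 and 6.62 FPKM in WT (1.39-fold lower), by the authors' deposited table. The differences between the SWEET genes and these lists were not tested.

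**Figure D4:**
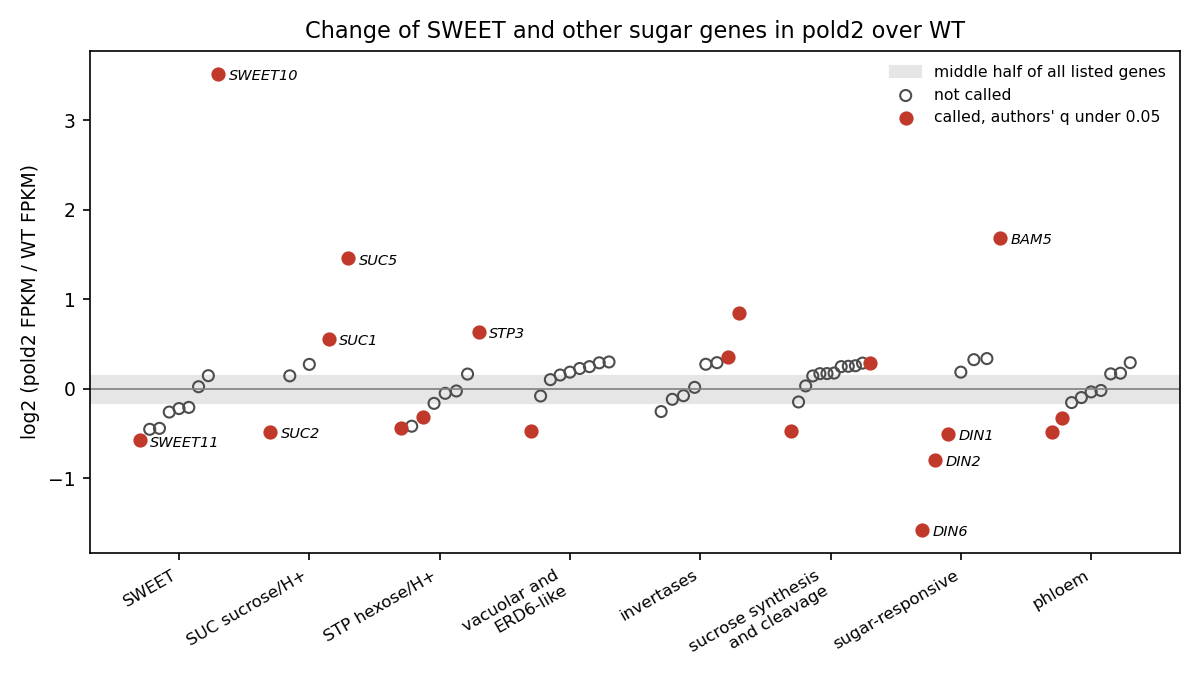
Log2 ratio of pold2 FPKM over WT FPKM for each SWEET gene and for the genes of 7 other lists, with filled points for genes at a q under 0.05 in the authors' deposited table and a grey band for the middle of all listed genes (25th to 75th percentile). SWEET10, which was chosen by this value, lies at 3.52, above every other point drawn, and SWEET11, at -0.57, near SUC2.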

How the data were processed

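RNA was measured in 6 libraries and histone marks in 3 WT libraries used here. Per the file headers, the authors deposited FPKM values pooled to 1 per genotype, the log2 fold change of pold2 over WT, and a p-value and q-value per gene. The submitters' processing notes name TopHat2 2.1.1, Cuffdiff 2.1.1, Bowtie 0.12.9 and TAIR10 as the build, without saying which step each served. The peak lists hold the score per peak that the authors deposited, with names that begin with MACS. Of the caller's version and control nothing is given in the sources used here. TAIR10 is the genome of another ecotype (Columbia), and its effect on the C24 values was not tested.

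No test across libraries was possible, so a gene counted as called where the authors' q was under 0.05. Depth is unknown. Table starts count from 0 and were raised by 1: of 3486 genes with the same end in the reference gene table (TAIR10.1), 824 had a start 1 lower and 18 an equal one. The reference gene table also gave the gene symbols. Loci carry no strand. Sums, percentiles, overlaps and distances were computed with Python 3.11.15, pandas 2.3.3 and NumPy 2.4.6, and the counts of calls and of covered bases were tested on simulated data. Genes were named by rule: the SWEET genes, called genes of 14 lists (up to 4 each), neighbours within 10 kb and the 5 genes nearest to SWEET10. Genes not called were added after their values were seen: SEOR1, AHA3, SAG13, NYE1, FD, AG, SUC4, DIN10, APL3, GPT2, RBCS1A and PYK10. The members and lists were chosen with earlier results of these data known. Alternatives were a stricter q (0.01), a 2-fold minimum, expression minimums of 1 and 5 FPKM, pseudocounts of 0.1 and 1 FPKM, median-ratio scaling, and other peak overlaps and scores.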

Additional observations from a re-analysis of the deposited data

How the results depend on the processing

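No paired analysis was possible because the table holds 1 pooled value per genotype, and for the same reason no library could be left out. Of the 9 SWEET genes, 2 were called (SWEET10 and SWEET11). With a 2-fold minimum 1 was called, SWEET10, and where the mean had to reach 5 FPKM 1 was called, SWEET11. At q under 0.01, 2 were called. Over all genes the 2470 calls became 1508 at q under 0.01 and 316 with a 2-fold minimum. Over 8 lists of sugar, phloem and FT pathway genes, the 18 calls became 5 with a 2-fold minimum and 11 where the mean had to reach 5 FPKM. The log2 ratio of SWEET10 was 3.52 as deposited, 3.03 with pseudocount 0.1, 1.53 with pseudocount 1 and 3.53 with median-ratio scaling. The median of the 9 genes was -0.22 as deposited, and -0.21 with pseudocount 1 and with median-ratio scaling. The other 8 log2 ratios moved by at most 0.19, in SWEET4, at -0.44 as deposited and -0.25 with pseudocount 1. H3K27me3 peaks lay over 6 genes at any overlap tried and over 4 with the better-scoring 50% of the peaks. H3K4me3 peaks lay over 3 genes, over 2 where 50% of the locus had to be covered and over 0 with the better-scoring 50% of the peaks. SWEET10 in WT, and SWEET4 and SWEET13 in both genotypes, stood under 2 FPKM, and the depth behind these values is unknown.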

Other observations

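Genes that answer sugar supply, which the account of the SWEET genes leaves out, were mixed. Of 7 such genes, all with a row, 1 was higher, 3 were lower and 3 were not called in the authors' deposited table, with a median log2 ratio of 0.19. Over all genes 5.97% were higher and 6.47% lower. The lower ones were genes known to be induced in the dark and by sugar starvation. DIN6, the asparagine synthetase gene ASN1, had 6.03 FPKM in pold2 and 18.0 FPKM in WT (2.98-fold lower, q = 0.00103 in the authors' deposited table). DIN2, a beta-glucosidase gene, had 1.31 FPKM in pold2 and 2.26 FPKM in WT (1.73-fold lower), and DIN1 had 84.2 FPKM in pold2 and 120 FPKM in WT (1.42-fold lower), in the authors' deposited table. DIN10, also a dark-induced gene, stood at 52.3 FPKM in pold2 and 46.0 FPKM in WT and was not called.

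BAM5, a beta-amylase gene that sugar induces, had 0.619 FPKM in pold2 and 0.192 FPKM in WT (3.22-fold higher, q = 0.00772 in the authors' deposited table), a WT level near the 0.219 FPKM of SWEET10. At that level a row required a higher value in pold2. It lay under H3K27me3 in WT over 84.8% of its locus. The sugar-induced genes APL3 and GPT2 were not called, at 7.09 and 2.07 FPKM in pold2 and 5.65 and 1.64 FPKM in WT.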
